A study of Mus musculus with 2 samples.

Results

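The cells described here are pericytes of mouse hindlimb muscle, 527 of the 14984 cells that passed the limits on genes and on mitochondrial and hemoglobin transcripts in 2 single-cell libraries. They were chosen by transcript counts, as unique molecular identifiers (UMIs). The sum of Kcnj8, Abcc9, Rgs5 and Higd1b, called K, had to be at least 4 and larger than the sum of Myh11, Acta2 and Tagln, called S, with at most 1 UMI in all of Pecam1, Cdh5, Ptprc, Pdgfra and Pax7. The ATRA+agonist library held 246 of these cells and the DMSO vehicle library held 281. Both libraries came from female C57Bl/6J mice aged 24 months, and each pooled the cells of 2 mice. The treated mice received 3 injections into the leg muscles within a week, which carried all-trans retinoic acid (ATRA) with CD3254, an agonist of the receptor RXR-alpha, and BMS961, an agonist of RAR-gamma. The other mice received the DMSO vehicle on the same schedule. There was 1 library per group, so no difference between the libraries has a replicate check, and the intervals given are 95% intervals that cover counting error only.

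Pericytes are mural cells that lie on capillaries and small vessels, inside the basement membrane that they share with the endothelium. They are recruited by endothelial PDGF-BB through the receptor Pdgfrb, they respond to vasoactive signals, and along the vessel tree they grade into arteriolar smooth muscle. Kcnj8 and Abcc9 encode the pore and the regulatory subunit of an ATP-sensitive potassium channel, and Rgs5 encodes a regulator that shortens signaling through G proteins.

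The pericytes were 3.29% of the cells in the ATRA+agonist library, with an exact Clopper-Pearson interval of 2.90 to 3.72%. In the DMSO vehicle library they were 3.74%, with bounds of 3.32 and 4.19%. The ratio of the shares was 0.881 with an interval of 0.745 to 1.04, so a difference was not detectable at this number of cells under the limits as set. The denominators differed in their immune cells, with 872 such cells in the ATRA+agonist library and 610 in the DMSO vehicle library. Over cells with no Ptprc UMI the ratio was 0.980 (0.829 to 1.16). Of pericytes and smooth muscle cells together, pericytes were 75.9% and 74.5%, a ratio of 1.02 (0.936 to 1.11). Among cells with K of at least 20 the ratio was 0.777 (0.639 to 0.946), and without the mixed members described below it was 0.793 (0.660 to 0.953), both of them choices made after the data were seen. It was 0.823 (0.688 to 0.983) under a limit of 10% mitochondrial UMIs and 0.827 (0.692 to 0.989) with at least 500 genes. Under these 4 settings the interval lay below 1. Fewer cells of a type and a smaller yield of them from the tissue cannot be told apart.

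Few cells lay at the edge of the gate. K stood at its minimum of 4 in 9 members of each library, and 19 and 9 cells with K at 3 lay just outside in the ATRA+agonist and DMSO vehicle libraries. One cell of the ATRA+agonist library had K equal to S. The median K was 41.5 UMIs in the ATRA+agonist pericytes and 47 in the DMSO vehicle pericytes, against median S values of 2 and 3. Members with K of 4 to 9 were 17.5% and 11.03% of the pericytes, and their median depth was 860 and 1120 UMIs, against 3938 and 3837 UMIs for members with K of at least 20. A further 201 and 219 cells met the K and S limits and were left out by the exclusion genes, 190 and 205 of them with Pecam1 or Cdh5, the endothelial genes. Over all pericytes the median depth was 3181 UMIs and 1710.5 genes in the ATRA+agonist library and 3509 UMIs and 1772 genes in the DMSO vehicle library, with medians of 3.55% and 2.93% mitochondrial UMIs. The libraries shared 43 barcodes, and no barcode was a pericyte in both.

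**Figure D1:**
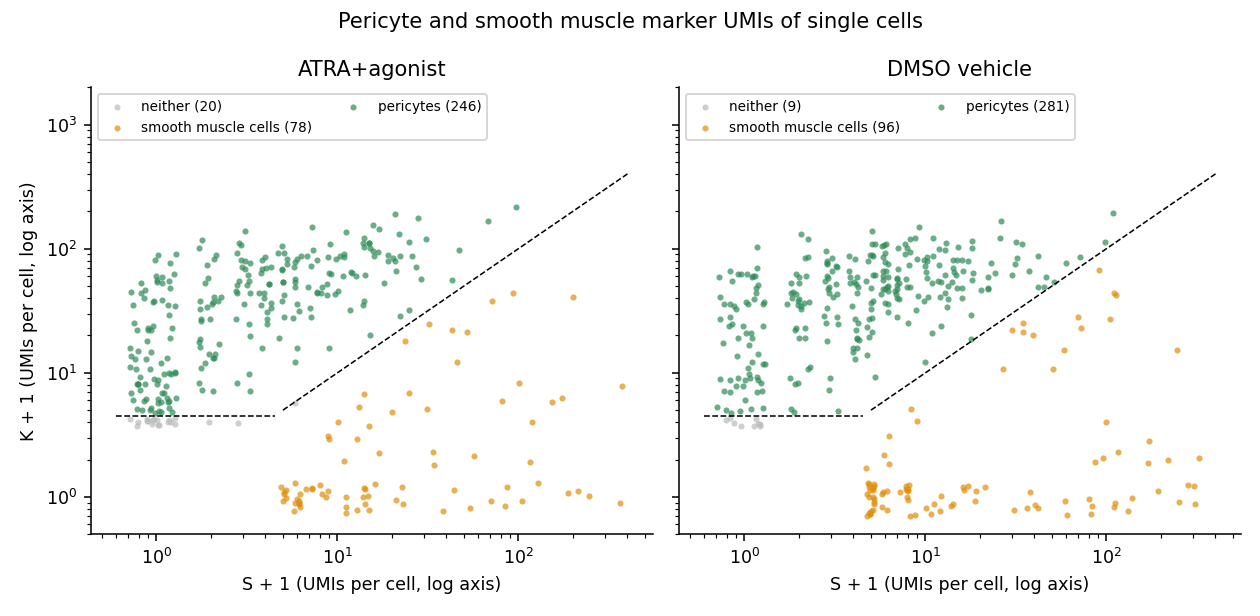
UMIs of the pericyte genes (K, y axis) and of the smooth muscle genes (S, x axis) in single cells that passed the limits and the exclusion genes, with 1 added to both sums, log axes, a small random offset to separate equal values and dashed lines at the gate. The pericytes, 246 and 281 cells, lie above it, and the 78 and 96 smooth muscle cells lie below the diagonal.

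The label was checked against genes that the rule did not use. Pdgfrb had 948 CPM in the ATRA+agonist and 922 CPM in the DMSO vehicle pericytes, where CPM is a gene's UMIs per 1000000 UMIs of the summed cells. The same gene had 105 and 130 CPM in smooth muscle cells, 112 and 98.5 CPM in mesenchymal progenitors, 3.43 and 14.7 CPM in endothelial cells and 1.25 and 0.856 CPM in immune cells. Vtn, which encodes the matrix protein vitronectin, had 1335 and 864 CPM in pericytes and at most 58.5 CPM in the other 4 cell groups. Cspg4, the NG2 proteoglycan, had 270 and 227 CPM, and Notch3, the Notch receptor of mural cells, had 790 and 699 CPM. Cnn1, a calponin of mature smooth muscle, had no UMI in any pericyte and 28.2 and 39.5 CPM in smooth muscle cells. The 6 identity genes with fewest UMIs were Foxf2 with 0 and 2 UMIs, Kcnk3 with 1 and 2, Atp13a5 with 1 and 6, Anpep with 10 and 9, Foxc1 with 16 and 23 and P2ry14 with 26 and 22, all under the 50 UMIs that the comparison between the libraries required. Pdgfrb and Vtn stood as the label has them, and all of these values come from cells gated on related genes.

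The 4 gate genes were all abundant, as the gate required, and the comparison with other cells is a description only. Rgs5 had 8614 CPM in the ATRA+agonist pericytes and 8960 CPM in the DMSO vehicle pericytes, against 404 and 427 CPM in smooth muscle cells. Abcc9 had 3071 and 3074 CPM. Kcnj8 had 1619 and 1187 CPM, and Higd1b, a mitochondrial protein of the hypoxia-inducible domain family, had 641 and 549 CPM. Rgs5 had UMIs in 1.60 and 2.10% of mesenchymal progenitors, at median depths of 9579 and 7799 UMIs and with no limit on K. In endothelial cells with no limit on K, Rgs5 had UMIs in 20.9 and 21.3%, at 419 and 495 CPM. Whether free transcripts gave the UMIs in either group was not tested. After each pericyte was thinned to 1000 UMIs, which kept 201 and 258 cells, Rgs5 was found in 100% and 97.7% of pericytes, Abcc9 in 82.6% and 86.8%, Kcnj8 in 69.7% and 55.8% and Higd1b in 43.3% and 33.3%. Kcnj8 (chr6:142564837-142571614, minus strand) and Abcc9 (chr6:142587862-142702315, minus strand; GRCm38 positions) lie next to each other in the genome, and both are described in each library next.

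Kcnj8 was higher in the ATRA+agonist pericytes, with 1387 UMIs in 174 cells against 1207 UMIs in 221 cells and a log2 ratio of 0.45 (0.33 to 0.56). It stood at 0.27 when all cells were weighted equally. Abcc9, its neighbor and partner subunit, had 2631 and 3125 UMIs and a log2 ratio of 0.00 (-0.08 to 0.07). Because these genes chose the cells, each was also compared in cells picked by the other 3 genes, where Kcnj8 had a log2 ratio of 0.39 (0.28 to 0.51), Abcc9 of -0.04 (-0.11 to 0.04), Rgs5 of -0.12 (-0.17 to -0.07) and Higd1b of 0.15 (-0.02 to 0.32). The ratio of the pore subunit thus lay above that of the regulatory subunit between these libraries. None of these ratios reached 2-fold.

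Outside the gate genes, 15 genes were chosen for the largest level in pericytes over the highest of the other 4 cell groups, with 10 CPM added to both. Zmat4, a zinc finger gene, led with 416 and 464 CPM in the ATRA+agonist and DMSO vehicle pericytes and a 34.5-fold difference from smooth muscle cells. Pde8b, a cyclic AMP phosphodiesterase, stood at 20.7-fold with 629 and 603 CPM, Plxdc1 at 20.2-fold with 454 and 334 CPM, and Vtn at 18.5-fold. Also among the 15 were Ppfia2, Rerg, Zfp804b, Pacsin3, Lin7a, Slc24a3, Plcl1, Cfap54, Chn1 and Asic2, at 11.8 to 16.5-fold. Plcl1, a phospholipase C-like protein, was the most abundant of them with 2857 and 3066 CPM. Among the 15 genes the log2 ratio between the libraries ran from -0.46 for Lin7a, a scaffold protein, to 0.63 for Vtn.

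**Figure D2:**
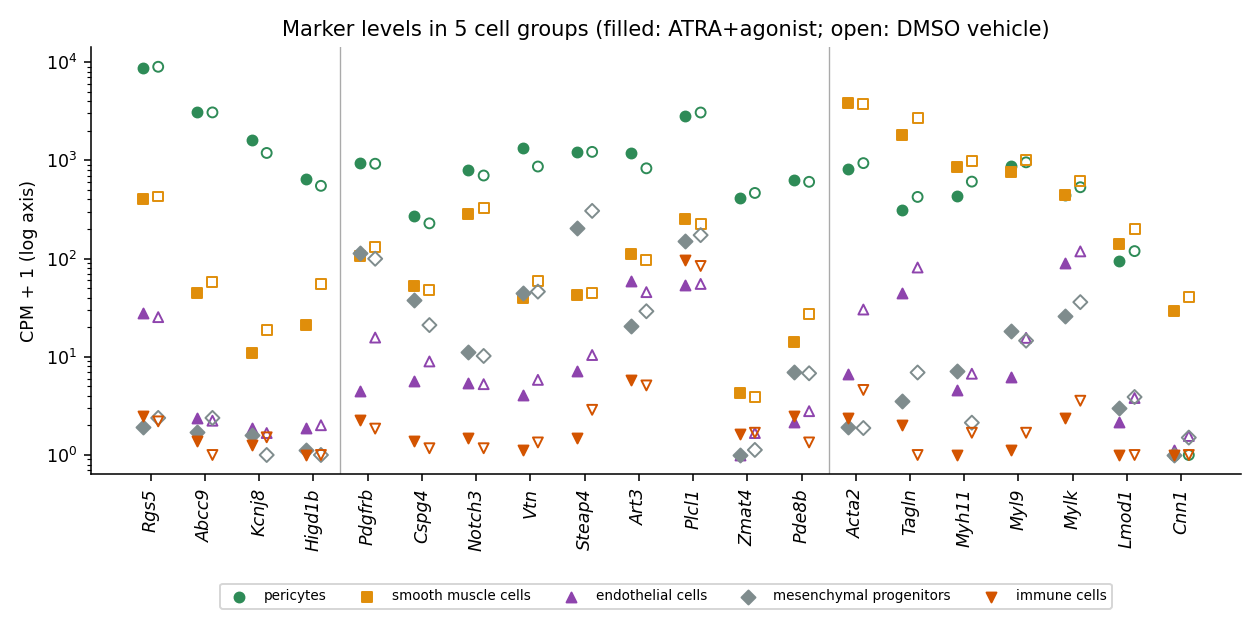
Level (CPM plus 1, log axis) of the gate genes (left), of identity genes and genes high in pericytes (middle) and of smooth muscle genes (right) in 5 cell groups, with filled symbols for the ATRA+agonist library and open symbols for the DMSO vehicle library. Pericytes stand highest for the left and middle genes, Cnn1 is at 0 in pericytes, and the gate itself set the order for Rgs5, Abcc9, Kcnj8, Higd1b, Acta2, Tagln and Myh11.

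The pericytes varied in their contractile transcripts. Of the cells thinned to 1000 UMIs, 45 and 50 had S at 0 in the ATRA+agonist and DMSO vehicle libraries, 24 and 30 had S at 1, and 132 and 178 had S at 2 or more, counted before thinning. Cells with more S had been sequenced more deeply, with medians of 2386, 2777 and 4242 UMIs in the ATRA+agonist library, so S also followed depth. Myl9, the regulatory light chain of smooth muscle myosin, was not used in the rule and had 489, 750 and 985 CPM over these 3 sets in the ATRA+agonist library and 540, 333 and 1168 CPM in the DMSO vehicle library. Pdgfrb had 556, 667 and 985 CPM, then 880, 600 and 1084 CPM. Kcnj8 was 911 CPM (654 to 1236) at S of 0, 917 CPM at S of 1 and 2053 CPM (1816 to 2313) at S of 2 or more in the ATRA+agonist library, and 920 CPM (674 to 1227), 1067 CPM and 1253 CPM (1094 to 1428) in the DMSO vehicle library. K had to be larger than S, so the rule itself ties Kcnj8 to S, and these values are a description.

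Some pericyte profiles carried transcripts of other cells. More UMIs of 1 other cell type's marker list than of K were found in 49 ATRA+agonist and 31 DMSO vehicle members, and these are called mixed members below. The endothelial marker Cd36 was left out of that comparison. Endothelial markers led in 44 and 22 of them. The 10 endothelial markers, Cd36 included, all had UMIs in both libraries and summed to 3402 and 2658 CPM, and to 1793 and 1975 CPM without the mixed members. Cd36 alone had 968 and 918 CPM, with UMIs in 201 and 234 pericytes, and kept 730 and 842 UMIs without the mixed members. Whether its UMIs came from pericytes or from other cells was not tested. The 11 mesenchymal progenitor markers summed to 549 CPM in the ATRA+agonist and 1661 CPM in the DMSO vehicle pericytes, and to 562 and 522 CPM without the mixed members. Of 7 tenocyte markers, 4 and 7 had UMIs, with sums of 11.7 and 300.02 CPM that became 12.6 and 7.501 CPM. The 12 muscle fiber markers summed to 399 and 1353 CPM, of which 1 DMSO vehicle cell held 1252 UMIs. The 12 immune markers stood at 94.5 and 132 CPM with Cd3e at 0 in both libraries. Also at 0 were S100a8 and S100a9 in the ATRA+agonist and Ms4a1 and Tyrobp in the DMSO vehicle pericytes. The 7 glial markers stood at 37.3 and 78.7 CPM, and the 7 muscle stem cell markers at 88.7 and 118 CPM with Myf5, Musk, Cdh15 and Chrdl2 at 0 in both. The 5 red blood cell genes summed to 484 and 1247 CPM, and to 411 and 1238 CPM without the mixed members. The choice to set mixed members apart was made after the data were seen. Values without them are given beside the results that they change, and their part in the other results was not tested.

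Between the 2 libraries, 5983 genes had at least 50 UMIs over the pericytes of both and were compared. The median log2 ratio of ATRA+agonist over DMSO vehicle was 0.02. A ratio of at least 2-fold higher was found for 50 genes (0.836%) and of at least 2-fold lower for 121 genes (2.02%). These shares are the background for each list below. Without the mixed members the counts were 45 and 102 of 5686 genes measured.

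The genes of pericyte identity outside the gate were on the whole slightly higher in the ATRA+agonist pericytes. Of 26 listed genes 20 were measured, 15 of them above 0 and 5 below on the log2 scale, with a median of 0.20, and none was past 2-fold in either direction. Vtn had 1144 UMIs in the ATRA+agonist pericytes and 878 in the DMSO vehicle pericytes, a log2 ratio of 0.63 (0.50 to 0.76). Art3, a surface ADP-ribosyltransferase, had 1028 and 842 UMIs and a ratio of 0.53 (0.40 to 0.67). Gucy1a1, a subunit of the nitric oxide receptor guanylate cyclase, had 731 and 634 UMIs (0.45, 0.30 to 0.61). Pdgfrb stood at 0.04 (-0.10 to 0.18) and Steap4, a metalloreductase, at -0.02 (-0.14 to 0.10). The lowest was Ifitm1, an interferon-induced membrane protein, with 89 and 183 UMIs and a ratio of -0.79 (-1.18 to -0.42). The median of the list was 0.18 without the mixed members, and it ranged from 0.05 to 0.32 over 15 alternatives. Over all compared genes the median was 0.02, with 3117 above and 2866 below 0.

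Contractile genes went both ways. Of 20 listed genes 14 were measured, 6 above and 8 below 0, with a median of -0.05, and Synpo2 was the one past 2-fold. Synpo2, an actin-bundling protein of the Z disc, had 82 UMIs in 37 ATRA+agonist cells and 228 UMIs in 87 DMSO vehicle cells, a log2 ratio of -1.23 (-1.61 to -0.86), and stood at -0.77 where K had to be larger than 2 times S. Mylk, the myosin light chain kinase, had 375 and 540 UMIs (-0.28, -0.47 to -0.09), and Myl9 had 752 and 969 UMIs (-0.12, -0.26 to 0.02). Tpm1 stood at -0.39 (-0.54 to -0.24) with 188 of its 951 DMSO vehicle UMIs in 1 cell, and at -0.11 without the mixed members. The 3 smooth muscle genes of the gate were all lower in the ATRA+agonist pericytes, with log2 ratios of -0.20 for Acta2, -0.44 for Tagln and -0.47 for Myh11. Tagln stood at 0.15 where K had to be larger than 2 times S, and these values depend on the rule that capped them.

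Among 27 vasoactive receptors and their regulators 14 were measured, 10 above and 4 below 0, with a median of 0.11 and none past 2-fold. The 2 endothelin receptors went in opposite directions. Ednra had 267 UMIs in the ATRA+agonist pericytes and 213 in the DMSO vehicle pericytes, a log2 ratio of 0.57 (0.31 to 0.84), and Ednrb had 523 and 967 UMIs, a ratio of -0.64 (-0.80 to -0.48), or -1.03 when all cells were weighted equally. Adra1a, the alpha-1A adrenergic receptor, had 70 UMIs in 45 cells and 42 UMIs in 31 cells (0.98, 0.41 to 1.57), and stood at 0.36 in thinned cells. Pth1r, the parathyroid hormone receptor, had 51 and 33 UMIs (0.87, 0.22 to 1.55). Ptger4, a prostaglandin E2 receptor, had 42 and 85 UMIs (-0.77, -1.34 to -0.22), and Agtr1a, the angiotensin receptor, stood at 0.12 (-0.14 to 0.38). Downstream of these, the 14 measured genes of ion channels and calcium handling had a median of -0.10, with Stim1, the calcium sensor of the endoplasmic reticulum, at -0.69 (-0.96 to -0.43) from 185 and 355 UMIs and the calcium channel subunit Cacna1c at -0.01 (-0.11 to 0.09) from 1429 and 1708 UMIs. The 11 measured genes of nitric oxide and cyclic GMP signaling had a median of 0.12, with Prkg1, the cyclic GMP-dependent kinase, at 0.02 (-0.04 to 0.08) and Gucy1a2 at -0.28 (-0.41 to -0.15). Its lowest member was Pde4d, a cyclic AMP phosphodiesterase, with 30 and 61 UMIs (-0.78, -1.46 to -0.12), which stood at -1.11 without the mixed members and at 0.34 when cells with K of 3 were added. No gene of these 3 lists was past 2-fold among all pericytes, and Pde4d was without the mixed members.

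**Figure D3:**
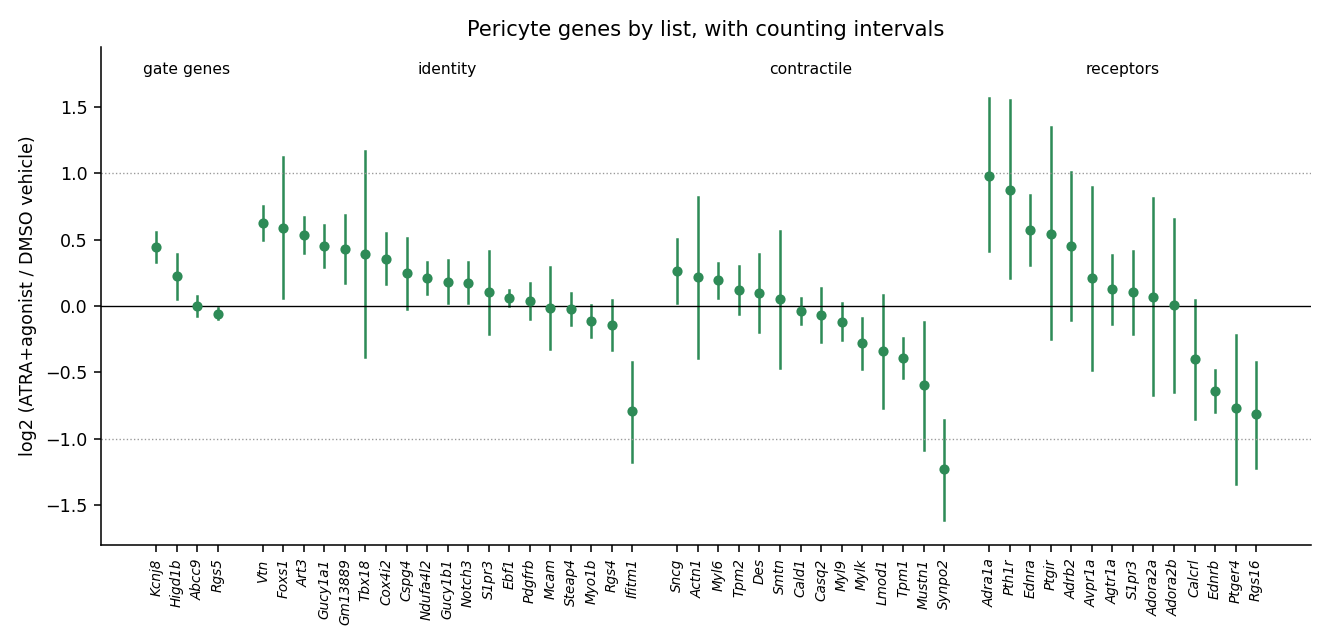
Log2 ratio of ATRA+agonist over DMSO vehicle in pericytes for measured genes of 4 lists, with 95% counting intervals as vertical lines and dotted lines at 2-fold. Most gate, identity and contractile genes lie within 0.5 of 0, Synpo2 lies beyond the lower dotted line, and Ednra and Ednrb lie on opposite sides of 0.

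Genes that signal between pericytes and endothelium went both ways. The receptor genes of the Notch list stood at 0.18 (0.02 to 0.33) for Notch3 and 0.28 (-0.10 to 0.67) for Notch1, and Heyl, a Notch target in mural cells, had 200 and 152 UMIs and a log2 ratio of 0.64 (0.33 to 0.96). Hes1, another target, stood at 0.04 (-0.16 to 0.25). The median of the 8 measured Notch genes was 0.14. Of the PDGF, angiopoietin and VEGF list, Pdgfrb, Nrp1 and Angpt2 were within 0.2 of 0 on the log2 scale. Kdr, the endothelial VEGF receptor, stood at 1.64 from 71 and 27 UMIs and at 0.32 without the mixed members. Pdgfd, a PDGF ligand, had 8 UMIs in 5 ATRA+agonist cells and 78 UMIs in 18 DMSO vehicle cells, of which 27 were in 1 cell, and stood at -3.04 with and -3.01 without the mixed members. These were the 2 genes of the list past 2-fold, and its median over 9 measured genes was 0.04. Pdgfd had under 50 UMIs without the mixed members, and no gene then measured was past 2-fold.

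Genes of the basement membrane had a median of 0.11 over 20 measured of 25 listed, 11 above and 9 below 0. The type IV collagen chains Col4a1 and Col4a2, its main components, were both higher in the ATRA+agonist pericytes. Col4a1 had 946 and 940 UMIs (0.26, 0.12 to 0.39) and Col4a2 had 655 and 640 UMIs (0.28, 0.12 to 0.44). Col15a1 was past 2-fold higher, with 72 UMIs in 35 cells and 31 UMIs in 20 cells and a log2 ratio of 1.46 (0.84 to 2.12), 1.51 without the mixed members and 0.84 when all cells were weighted equally. Fn1, fibronectin, was past 2-fold lower with 14 and 48 UMIs (-1.53, -2.50 to -0.65), of which 15 DMSO vehicle UMIs were in 1 cell. Without the mixed members it had under 50 UMIs and stood at -1.04, which left no gene of the list measured as past 2-fold lower, and it had the opposite sign, 0.54, when cells with K of 3 were added. Of 18 integrins, proteases and inhibitors 14 were measured, 5 above and 9 below 0, with a median of -0.05 and none past 2-fold. Timp3, an inhibitor of metalloproteinases, had 1599 and 2832 UMIs and a ratio of -0.58 (-0.67 to -0.49). Adamts9, a protease, had 348 and 598 UMIs (-0.53, -0.73 to -0.34). On the other side were Mmp14, a membrane metalloproteinase, with 174 and 157 UMIs (0.40, 0.08 to 0.72), and Adamts4, with 356 and 323 UMIs (0.39, 0.17 to 0.61), which stood at -0.38 in thinned cells.

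Genes that glucocorticoids are known to induce were lower in the ATRA+agonist pericytes. The list of 12 also held Nr3c1, the gene of the glucocorticoid receptor. Of the 12 genes 11 were measured, 10 below and 1 above 0, with a median log2 ratio of -0.82. Past 2-fold lower were 5 of them, where 2.02% of all genes were. Cebpd, a transcription factor of the C/EBP family (chr16:15887286-15891031), had 192 UMIs in 87 ATRA+agonist cells and 637 UMIs in 182 DMSO vehicle cells, a ratio of -1.48 (-1.72 to -1.25). Zbtb16, a zinc finger factor (chr9:48654297-48836222), had 147 UMIs in 84 cells and 463 UMIs in 180 cells (-1.41, -1.69 to -1.14). Fkbp5, a co-chaperone of the glucocorticoid receptor (chr17:28399094-28517527), had 36 and 95 UMIs (-1.15, -1.75 to -0.59), and stood at -0.58 in thinned cells. Ddit4, an inhibitor of mTORC1 signaling, had 28 and 71 UMIs (-1.10, -1.78 to -0.45), with -0.94 without the hemoglobin filter and -1.81 in thinned cells. Tsc22d3, the leucine zipper protein GILZ, had 67 and 165 UMIs (-1.05, -1.49 to -0.64), and stood at -0.68 in thinned cells. Errfi1, an inhibitor of EGFR signaling, had 630 and 1323 UMIs (-0.82, -0.96 to -0.69). Nr3c1, the glucocorticoid receptor itself, was the gene above 0, with 316 and 322 UMIs (0.22, -0.01 to 0.45).

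The same genes also differed between the libraries in other cells. The median of the list was -0.50 in smooth muscle cells, -0.37 in endothelial cells, -0.54 in mesenchymal progenitors and 0.12 in immune cells. Zbtb16 stood at -2.25, -1.94, -1.15 and 0.13 in these 4 groups, and Fkbp5 at -1.47, -1.51, -0.97 and -1.19. Cebpd stood at -0.50, -0.36, -0.89 and -0.76. The lower level of Fkbp5 and Cebpd was thus shared by all 5 cell groups, and differences of size between the groups were not tested.

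Promoters of these genes were searched because the genes were lower together. The motif was a palindromic form of the glucocorticoid response element, GNACA and TGTNC set 3 bases apart, which reads alike on both strands, and it was sought in the 250 bases before each start of transcription in RefSeq (GRCm38.p6). It stood in 127 of 32851 promoters, 0.387%. RefSeq starts were found for 9 of the 12 listed genes, 19 starts in all, and 1 start of Sgk1, a serum- and glucocorticoid-regulated kinase, held the motif. Cebpd and Zbtb16 were among the genes with no start found, so they were not searched. The shorter core ACANNNTGT stood in 5.84% of promoters and at 2 of the 19 starts, both of Sgk1. Sgk1 had 49 and 95 UMIs and a log2 ratio of -0.71 (-1.24 to -0.20). Mt1, a metallothionein induced by metals and glucocorticoids, is on the metallothionein list and held the full motif, at 1 of the 5 starts searched for that list. Mt1 also held the metal response core TGCACNC, which was searched on both strands and is in 10.4% of promoters. Mt1 had 241 and 489 UMIs and a ratio of -0.77, of which 59 and 93 were in 1 cell each, stood at -0.51 without the mixed members and at -1.33 when all cells were weighted equally. Both upstream sequences are shown on the plus strand, ending before the first exon in GENCODE M21, with the motifs in capitals, for Sgk1 at chr10:21993640-21993889 and for Mt1 at chr8:94178839-94179081.
Sgk1: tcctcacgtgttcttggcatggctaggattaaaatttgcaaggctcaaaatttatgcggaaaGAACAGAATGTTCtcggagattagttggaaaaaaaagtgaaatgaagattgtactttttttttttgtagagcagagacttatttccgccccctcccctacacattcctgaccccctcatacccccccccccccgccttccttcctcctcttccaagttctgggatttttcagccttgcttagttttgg
Mt1: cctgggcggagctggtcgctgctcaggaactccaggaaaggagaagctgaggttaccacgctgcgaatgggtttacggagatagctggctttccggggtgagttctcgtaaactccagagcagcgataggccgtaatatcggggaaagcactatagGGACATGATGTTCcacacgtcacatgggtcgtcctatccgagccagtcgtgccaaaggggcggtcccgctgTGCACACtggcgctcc
Counted to the RefSeq start, the glucocorticoid motif begins 188 bases upstream for Sgk1 and 94 bases upstream for Mt1. For Mt1 the printed run holds the first 243 of the 250 bases, since GENCODE places the first exon earlier than RefSeq. A match describes the letters only.

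Immediate early genes, which stimuli and tissue digestion are known to switch on within minutes, were lower in the ATRA+agonist pericytes. Of 21 listed genes 19 were measured, 16 below and 3 above 0, with a median of -0.48, and none was past 2-fold. Fos, a subunit of the factor AP-1, had 2247 UMIs in 159 ATRA+agonist cells and 4174 UMIs in 228 DMSO vehicle cells, a log2 ratio of -0.65 (-0.72 to -0.57). Dusp1, a phosphatase of MAP kinases, had 297 and 626 UMIs (-0.83, -1.03 to -0.63), and Zfp36, which speeds the decay of cytokine transcripts, had 402 and 796 UMIs (-0.74, -0.92 to -0.56). Egr1 had 1585 and 2665 UMIs (-0.50, -0.59 to -0.41) and Jun had 1513 and 2187 UMIs (-0.28, -0.38 to -0.19). Above 0 were Nr4a2 at 0.34 (0.03 to 0.64) from 185 and 174 UMIs, Egr3 at 0.13 (-0.73 to 0.99) from 24 and 26 UMIs and Klf4 at 0.08 (-0.20 to 0.35) from 210 and 236 UMIs. Nr4a2 stood at -0.37 when all cells were weighted equally, and without the mixed members Egr3 stood at -0.50 and Klf4 at -0.18. The medians of the list were -0.18 in smooth muscle cells, 0.02 in endothelial cells, 0.06 in mesenchymal progenitors and 0.24 in immune cells. Fos stood at 0.25, 0.01, 0.23 and 0.45 in these 4 groups. With 1 library per group, whether pericytes differ from these cells in this respect was not tested.

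**Figure D4:**
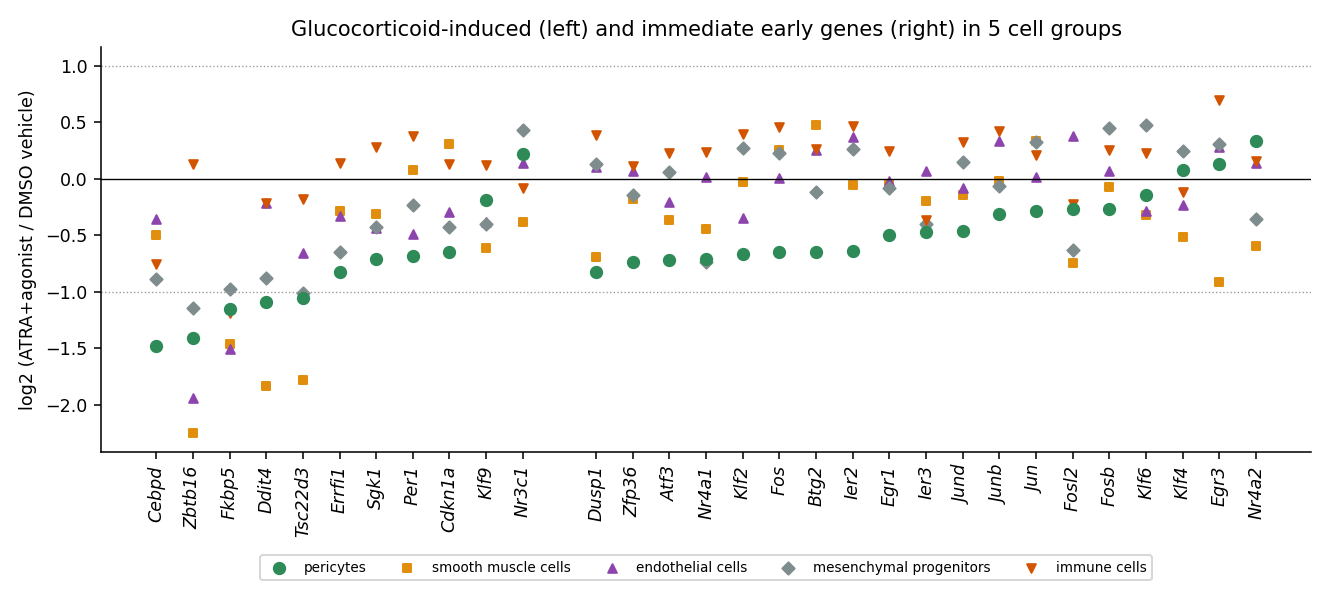
Log2 ratio of ATRA+agonist over DMSO vehicle for all measured genes of the glucocorticoid-induced list (left, 11 genes) and of the immediate early list (right, 19 genes) in 5 cell groups, with dotted lines at 2-fold. The pericyte points (green circles) lie below 0 but for Nr3c1, Nr4a2, Egr3 and Klf4, and the other cell groups lie on both sides of 0 for the immediate early genes.

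Interferon-response genes were lower as well. Of 31 listed genes 21 were measured, 17 below and 4 above 0, with a median of -0.33, and 4 were past 2-fold lower. These were Cd274, the immune checkpoint ligand PD-L1, with 14 and 55 UMIs (-1.73, -2.69 to -0.86), Gbp2, a guanylate-binding protein, with 29 and 96 UMIs (-1.48, -2.13 to -0.87), Ifit1, an RNA-binding antiviral protein, with 36 and 112 UMIs (-1.39, -1.97 to -0.84), and Irgm2, an immunity-related GTPase, with 21 and 60 UMIs (-1.27, -2.06 to -0.53). Of the 112 Ifit1 UMIs in the DMSO vehicle pericytes 37 were in 1 cell, and Ifit1 stood at -0.76 with doublets removed. Cd274 stood at -0.78 in thinned cells. Ifitm3 stood on the other side at 0.26 (0.14 to 0.38) from 1176 and 1165 UMIs. In endothelial cells the list had a median of -0.78, and Gbp2 there had 172 CPM in the ATRA+agonist and 937 CPM in the DMSO vehicle library. The part of endothelial transcripts in the pericyte values was not tested. In pericytes Gbp2 stood at -1.30 without the mixed members and at -2.32 when all cells were weighted equally. Without the mixed members 5 genes were past 2-fold lower, with Iigp1, an immunity-related GTPase, at -1.12 against -0.88 (-1.08 to -0.69) among all pericytes. In thinned cells the median over the 6 genes left was -0.10. The 14 measured genes of MHC class I presentation had a median of -0.29, 13 of them below 0, with B2m, the light chain, at -0.54 (-0.72 to -0.35) from 373 and 642 UMIs.

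Among the 11 measured cytokines, chemokines and adhesion genes the median was -0.10 and 3 were past 2-fold lower. Ccl11, the eosinophil attractant eotaxin, had 47 UMIs in 18 cells and 259 UMIs in 40 cells (-2.22, -2.70 to -1.76), with -2.15 without the mixed members. Icam1, an adhesion molecule for leukocytes, had 16 and 52 UMIs (-1.45, -2.36 to -0.62) and fell under 50 UMIs without the mixed members, at -1.08. Cxcl1, a neutrophil attractant, had 176 UMIs in 23 cells and 421 UMIs in 66 cells (-1.01, -1.27 to -0.75) stood at -0.82 without the mixed members and at -1.84 when all cells were weighted equally. Without the mixed members 9 genes of the list were measured, Ccl11 was the 1 past 2-fold lower, and the median was 0.03. Cxcl12, which holds CXCR4+ cells near vessels, was higher with 1342 UMIs in 220 cells and 1014 UMIs in 237 cells (0.65, 0.53 to 0.77). Il34, a ligand of the CSF1 receptor, did not differ beyond counting error, with 470 and 555 UMIs (0.01, -0.17 to 0.19).

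Nuclear genes of oxidative phosphorylation, the respiratory chain and ATP synthase of mitochondria, were higher in the ATRA+agonist pericytes by a small amount. All 76 listed genes were measured, 73 above and 3 below 0, with a median of 0.36 and none past 2-fold in either direction. Their sum was 16799 CPM in the ATRA+agonist and 13411 CPM in the DMSO vehicle pericytes. Cyc1, cytochrome c1 of complex III, had 91 and 62 UMIs (0.80, 0.32 to 1.29), and Atp5c1, the gamma subunit of ATP synthase, had 285 and 198 UMIs (0.77, 0.51 to 1.04). Ndufs8 of complex I stood at 0.79 (0.26 to 1.32) and Sdhd of complex II at 0.73 (0.08 to 1.40), or -0.15 in thinned cells. Ndufa6 was the lowest at -0.08 (-0.46 to 0.30). The median of the list was 0.45 in smooth muscle cells, 0.14 in endothelial cells, 0.12 in mesenchymal progenitors and -0.10 in immune cells. The 13 genes encoded in the mitochondrial genome had a median of 0.11, 11 of them above 0, from 0.31 for mt-Nd3 to -0.05 for mt-Nd1.

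**Figure D5:**
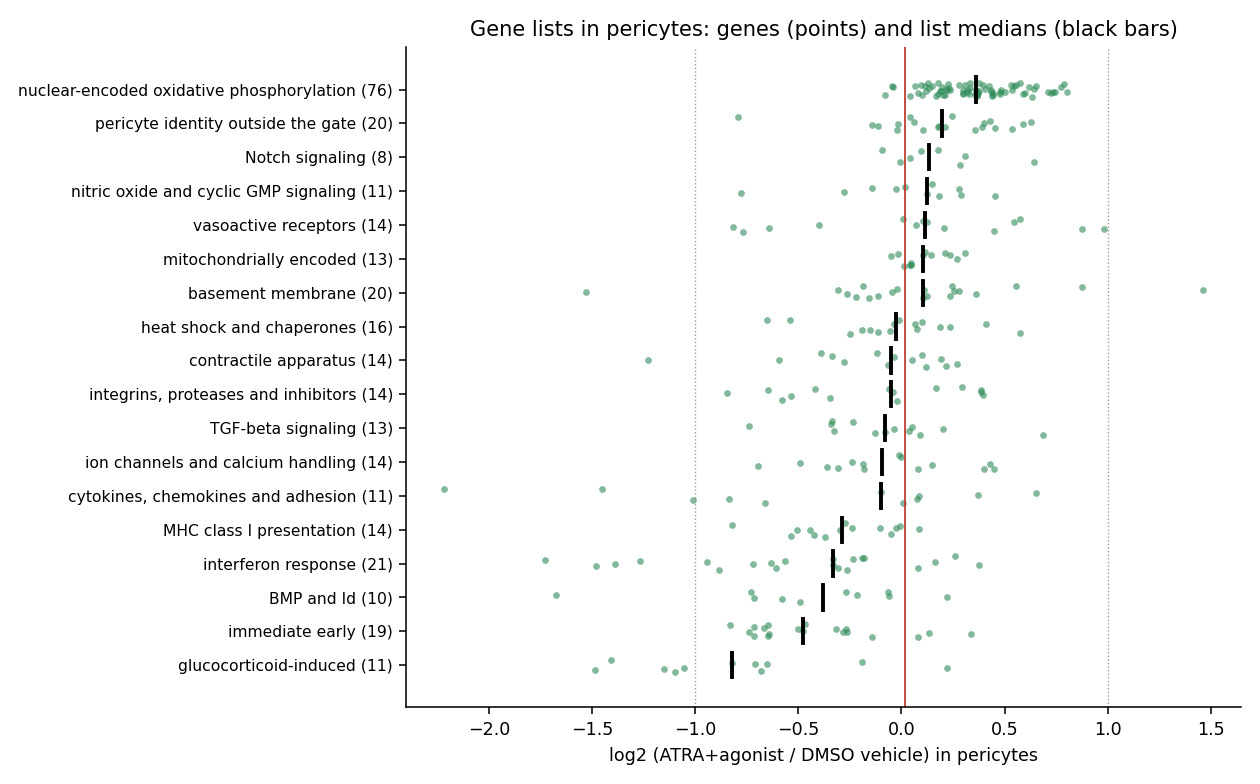
Log2 ratio of ATRA+agonist over DMSO vehicle in pericytes for the measured genes of 18 lists (points, with the number measured in brackets), ordered by the list median (black bar), with a red line at the median of all genes and dotted lines at 2-fold. The glucocorticoid-induced list lies lowest, with a median of -0.82, and the nuclear genes of oxidative phosphorylation lie highest, with a median of 0.36.

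Targets and components of the retinoic acid pathway, the pathway the injections addressed, were sparse in pericytes. Of 20 listed genes 4 had at least 50 UMIs. Rarb, a receptor gene that retinoic acid induces, had 87 UMIs in 51 ATRA+agonist cells and 73 UMIs in 48 DMSO vehicle cells (0.50, 0.03 to 0.97), with 0.12 when all cells were weighted equally. Rarg, the receptor of BMS961, had 34 and 33 UMIs (0.29, -0.44 to 1.03), with -0.15 without the mixed members, and Rxra, the receptor of CD3254, had 20 and 31 UMIs (-0.39, -1.27 to 0.47). Aldh1a1, a retinal dehydrogenase, had 7 and 59 UMIs (-2.83, -4.20 to -1.70), the one gene of the list past 2-fold, and stood at -1.22 in thinned cells. Cyp26b1, an enzyme that degrades retinoic acid, had 7 and 28 UMIs, too few for the comparison. Of genes of the study's wider question, Id1 had 63 and 105 UMIs (-0.49, -0.96 to -0.03), Id3 had 159 and 313 UMIs (-0.73, -1.01 to -0.45), Rock2 had 283 and 408 UMIs (-0.28, -0.50 to -0.06) and Sirt2 had 53 and 59 UMIs (0.09, -0.47 to 0.65; -0.86 in thinned cells). Id1, Id3 and Id4 are targets of BMP signaling that block basic helix-loop-helix factors. Id4 had 14 and 53 UMIs (-1.67, -2.64 to -0.80), with -0.38 in thinned cells, and was the one gene past 2-fold of the 10 measured on the BMP and Id list, whose median was -0.38 with 9 genes below 0. In thinned cells 4 genes of the list were left, with a median of 0.026. Bmp5, a BMP ligand, had 361 and 367 UMIs (0.22, 0.01 to 0.44). The 13 measured genes of TGF-beta signaling had a median of -0.08 and none past 2-fold. The 16 measured heat shock and chaperone genes had a median of -0.03, and the 3 measured metallothionein and zinc genes had one of -0.19, with none past 2-fold in either list.

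The 10 genes highest in the ATRA+agonist pericytes by log2 ratio, among genes with at least 100 UMIs in at least 20 cells and a level within 4 times that of any other cell group, were Rflnb, Dapk2, Slit2, Slc25a12, Lrp4, Slc8a1, Prss23, Adra1a, Aimp1 and Tle5, from 1.34 to 0.94. Rflnb, a regulator of filamin (chr11:76019194-76027782), had 107 UMIs in 42 cells and 50 UMIs in 28 cells, a ratio of 1.34 (0.85 to 1.86), and stood at 0.39 among cells with K of at least 20. Dapk2, a calcium-dependent protein kinase (chr9:66158223-66272242), had 230 UMIs in 113 cells and 124 UMIs in 95 cells, a ratio of 1.14 (0.82 to 1.46), and stood at -0.37, 0.17, 0.47 and 0.16 in smooth muscle, endothelial, mesenchymal and immune cells. In thinned pericytes Dapk2 stood at 0.62. Slc8a1, the sodium-calcium exchanger, had 92 and 52 UMIs (1.07, 0.56 to 1.59), and Slit2, an axon guidance ligand, had 68 and 37 UMIs (1.12, 0.53 to 1.74), of which 16 were in 1 ATRA+agonist cell, and stood at 0.67 when all cells were weighted equally. In thinned cells Slc25a12 stood at 0.36 and Prss23 at 0.46.

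The 10 genes lowest in the ATRA+agonist pericytes by the same rule were Csmd1, Kcnt2, Mylpf, Rgs6, Trim69, Per2, B3galt1, Hbb-bs, Cebpd and Zbtb16. Several rested on few cells. Csmd1, a large membrane protein (chr8:15892537-17535586), had 121 UMIs in 5 cells and 789 UMIs in 24 cells, with 249 in 1 cell (-2.46, -2.75 to -2.18), and stood at -1.44 when cells with K of 3 were added. Kcnt2 and B3galt1 stood at -1.19 and -1.04 where K had to be larger than 2 times S. Mylpf, a light chain of fast muscle fibers, had 364 of its 389 DMSO vehicle UMIs in 1 cell and had the opposite sign, 1.33, without the mixed members. Per2, a component of the circadian clock, was spread more widely, with 22 UMIs in 20 cells and 90 UMIs in 62 cells (-1.79, -2.53 to -1.10). Per2 was also lower in the ATRA+agonist library in smooth muscle, endothelial, mesenchymal and immune cells, at -1.17, -1.34, -1.01 and -0.74. Trim69, a ubiquitin ligase, had 28 UMIs in 17 cells and 120 UMIs in 56 cells (-1.85, -2.50 to -1.25), and stood at -0.84 in thinned cells. Hbb-bs, a beta globin, had 211 and 733 UMIs (-1.55, -1.78 to -1.33) and stood at -1.64, -1.43, -1.79 and -1.53 in the other 4 groups. Globin UMIs also entered the limits that chose the cells.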

How the data were processed

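The authors aligned the reads to mm10 (GRCm38) with Cell Ranger 7.2.0, and deposited raw UMI counts per gene and barcode, 10444 barcodes for ATRA+agonist and 17394 for DMSO vehicle. Their later filters and doublet removal were not part of these matrices. Here cells had 300 to 5000 genes, under 20% mitochondrial UMIs and under 0.25% Hbb- UMIs. Doublets were kept, and removed only in an alternative that dropped the 7.5% of cells nearest to artificial doublets. UMIs of the 246 and 281 pericytes, 856784 and 1016595 in all, were summed per library. Levels are CPM, and log2 ratios carry conditional exact 95% intervals. With 1 library of 2 pooled mice per group no test was made. "Past 2-fold" is a description for genes with at least 50 UMIs.

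The members and gene lists were chosen with earlier results of these data known. Genes named were those of the lists, the 10 highest and 10 lowest ratios (at least 100 UMIs and 20 cells, with 4 times the pericyte level at least the highest other level), and the 15 genes most above other cells. Results of 3 genes are not reported here. Genes were placed with GENCODE M21. The ratio intervals were tested on simulated counts, drawn independently for each gene and library. The simulation left out the clustering of UMIs in single cells, so it could not test the intervals against that. Python 3.11.15, numpy 2.4.6, scipy 1.17.1, pandas 2.3.3, scikit-learn 1.9.0 and matplotlib 3.10.9 were used. Alternatives changed the gate, the filters, the scaling, the depth per cell, the weight of cells and the UMI minimum. K of at least 20 and the removal of mixed members were added after the data were seen.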

Additional observations from a re-analysis of the deposited data

Results flagged for a closer look

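The genes named here had a ratio in pericytes and one in another cell group on opposite sides of 0, both more than 0.5 from 0 on the log2 scale. Genes with smaller opposite ratios, such as Dapk2 and Fos, are not included. In each case the difference was not tested, since each group had 1 library. Rflnb had a log2 ratio of 1.34 in pericytes, -0.78 (-1.26 to -0.31) in smooth muscle cells and -1.799 (-2.18 to -1.43) in immune cells. Adra1a stood at 0.98 in pericytes and at -1.21 (-2.14 to -0.35) in smooth muscle cells. Rgs6, a regulator of G protein signaling, stood at -1.86 in pericytes, with 19 UMIs in 7 cells and 82 UMIs in 20 cells, and at 1.4998 (1.33 to 1.67) in mesenchymal progenitors. Without the mixed members the pericyte values were 1.26 for Rflnb, 0.99 for Adra1a and -1.7998 for Rgs6.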

How the results depend on the processing

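With 1 library per group, no value here separates treatment from library. The glucocorticoid-induced median ranged from -1.0001 to -0.61 and the immediate early median from -0.66 to -0.36 over 15 alternatives. Thinning to 1000 UMIs left 12 genes past 2-fold higher and 54 lower, where fewer genes were measured, and moved the interferon median to -0.10 and the BMP and Id median to 0.026. Weighting all cells equally gave 135 higher and 242 lower. A minimum of 20 UMIs gave 252 and 340, and one of 100 UMIs gave 11 and 58. Thinning and the UMI minimum change the number of genes compared, so these counts cannot be set against the shares of all genes given above. Without the hemoglobin filter the oxidative phosphorylation median was 0.45. The cause of these moves was otherwise not tested.

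Some genes took the opposite sign. With K of at least 3, Fn1 was 0.54, Dcn 0.15 and Thbs4 0.60. With K of at least 20, Tnnc2 was 3.77, Ckm 3.69, Mylpf 3.20, Tnni2 4.397, Tnnt3 5.31 and Pvalb 1.23. Without the mixed members, Tnnc2 was 1.97, Ckm 2.41, Mylpf 1.33, Tnni2 2.70, Tnnt3 4.56, Dcn 0.99 and Thbs4 0.72. Of 389 named genes, 246 stayed within their counting interval in thinned cells, 266 when all cells were weighted equally, 362 without the mixed members and 358 with K of at least 20. Median-of-ratios scaling shifted every gene by the same 0.02. No paired analysis was possible because each group had 1 library.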
